A study of Mus musculus with 18 samples.

Results

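The genes examined encode growth factors of tissue repair and parts of the TGF-β system. They are the EGF family ligands *Areg*, *Ereg* and *Hbegf*, the ligands *Tgfb1*, *Inhba*, *Igf1* and *Edn1*, the activin trap *Fst*, the TGF-β activator *Thbs1* and the TGF-β target *Tgfbi*. They were chosen by symbol, through the Ensembl names of GRCm38, and make up 10 of the 55029 genes listed in the count files. RNA was measured in C57BL/6 mouse eosinophils from the peritoneal cavity of animals that all carry an *Il5* transgene, after depletion of cells that bind antibodies to Thy1.2 or B220. In DMEM with serum, eosinophils were given heat-inactivated *E. coli*, IFN-γ (50 ng/ml), both, or IL-4 (100 ng/ml) for 18 h, with 3 libraries for each. The 6 unstimulated libraries, whose time in culture is not stated, are lettered a to f. The files of libraries a to c share their layout, called type 1 here, with those of *E. coli* and IFN-γ, and d to f share that of IL-4. Each stimulus was set against the unstimulated libraries of its own layout. An alternative that took all 6 unstimulated libraries as one group mixes the layouts. A call lost in it cannot be told apart from a difference between layouts.

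EGF family ligands are made as membrane-bound precursors that proteases shed, and they drive the growth of epithelium through the EGF receptor. TGF-β is secreted in a latent complex that integrins, proteases and thrombospondin-1 can open, and both TGF-β and activin, a dimer of *Inhba* chains that follistatin neutralizes, act through SMAD proteins on genes of matrix and repair. Eosinophils are a known source of TGF-β in remodelling tissue, where IGF-1 supports cell growth and survival and endothelin-1 narrows vessels and acts on fibroblasts.

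The deposited values were raw counts. A library held 1523808 to 2734041 counts on genes among the 12 of the type 1 layout and 3625036 to 6482289 in the 6 of the IL-4 layout. Levels of 3 counts or fewer, equal to 1.003 to 2.19 CPM and 0.497 to 0.833 CPM in these layouts, were not told apart from 0, and this floor covers counting error only. CPM are counts scaled to a common library total, and levels are given as normalized CPM with the SD over 3 libraries. Calls needed an adjusted p below 0.05 in the quasi-likelihood F test of edgeR, adjusted by Benjamini-Hochberg over all genes that passed a filter on low counts, 9883 and 10556 in these layouts. Exact 95% intervals from summed counts, given where a group was at the floor, take each count as independent and leave out the spread between libraries. The p-values of edgeR measure only the spread between libraries, and the labels do not state whether libraries came from separate animals. In bulk RNA, fewer cells of a type and less RNA per cell cannot be told apart. A search of the annotated transcripts found no near-identical copy of any of the 10 genes in another gene. An antisense gene overlaps exons of *Thbs1* and held 11 counts over the 12 libraries and 1 over the 6, and those of *Ereg*, *Edn1* and *Fst* held 0.

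With *E. coli*, the activin chain *Inhba*, its trap *Fst*, *Tgfb1*, *Thbs1* and *Hbegf* rose, and *Igf1* and *Tgfbi* fell. *Inhba* went from 11.4 ± 4.11 to 116 ± 42.3 CPM (SD, n = 3), and *Igf1* from 37.0 ± 10.3 to 4.64 ± 2.90. Of the 7 genes that passed the filter on low counts, 5 were called higher and 2 lower, against 13.5% and 16.7% of the 9883 genes tested. *Fst* is among the 5, and unstimulated and IFN-γ libraries were at the floor for it. It passed the filter only through libraries with *E. coli*, so its call is not independent of the filter. *Areg*, *Ereg* and *Edn1* did not pass the filter in this layout. The median log2 fold change was 1.10 over the 7 and -0.02 over all genes tested. The median would be the same with *Fst* placed at its floor, since the value is that of *Tgfb1*.

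With IFN-γ alone, *Thbs1* rose, and *Tgfbi*, *Hbegf* and *Igf1* fell. *Thbs1* went from 249 ± 43.9 to 1128 ± 184 CPM (SD, n = 3), and *Tgfbi* from 327 ± 50.4 to 51.6 ± 2.53. Of the same 7 genes, 1 was called higher and 3 lower, where 15.6% and 16% of all tested genes were. *Tgfb1*, *Inhba* and *Fst* were not called. The median over the 7 was 0.17, that of *Tgfb1*, and -0.03 over all genes.

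With IFN-γ and *E. coli* together, *Inhba*, *Fst*, *Thbs1* and *Tgfb1* rose, and *Tgfbi*, *Igf1* and *Hbegf* fell. *Inhba* reached 176 ± 47.3 CPM and *Thbs1* 2127 ± 262, and *Tgfbi* was down to 21.1 ± 6.05 (SD, n = 3). The 7 tested genes split into 4 higher and 3 lower, beside 23.9% and 25.2% of all genes. Their median was 0.58, again that of *Tgfb1*, and that of all genes -0.04. Among the 4 is *Fst*, which passed the filter only through libraries with *E. coli*. These comparisons share unstimulated libraries a to c, so their results are not independent of each other.

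With IL-4, *Edn1*, *Inhba* and *Hbegf* rose and *Thbs1* fell. *Inhba* went from 25.1 ± 6.39 to 73.4 ± 6.46 CPM and *Hbegf* from 6.93 ± 1.46 to 17.6 ± 5.07 (SD, n = 3). *Areg*, *Ereg* and *Fst* did not pass the filter in this layout, and of the 7 genes that did, 3 were called higher and 1 lower, beside 5.97% and 4.35% of 10556. *Edn1* is among the 3, and libraries d to f were at the floor for it. It passed the filter only through the IL-4 libraries, so its call is not independent of the filter. *Tgfb1*, *Tgfbi* and *Igf1* were not called. The median over the 7 was 0.59, that of *Igf1*, and 0.00057 over all genes. Without IL-4 library 2 or IL-4 library 3, 2 of the 7 were called. The number called over all genes also moved when single libraries were left out, so this drop is not read as particular to these genes. Unstimulated library e stood apart from d and f over all genes, with a chi-square per gene of 23.7 and 21.96, where 1 is expected from counting error alone, beside 7.86 between d and f and 3.72 to 5.25 between IL-4 libraries. Without library e, 4 of the 7 genes and 1394 of all genes were called, in place of 4 and 1089, with log2 fold changes of 1.34 for *Inhba*, 1.27 for *Hbegf*, -0.74 for *Thbs1*, 0.35 for *Igf1*, -0.0958 for *Tgfb1* and 0.0737 for *Tgfbi*, and the call of *Edn1* held.

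**Figure D1:**
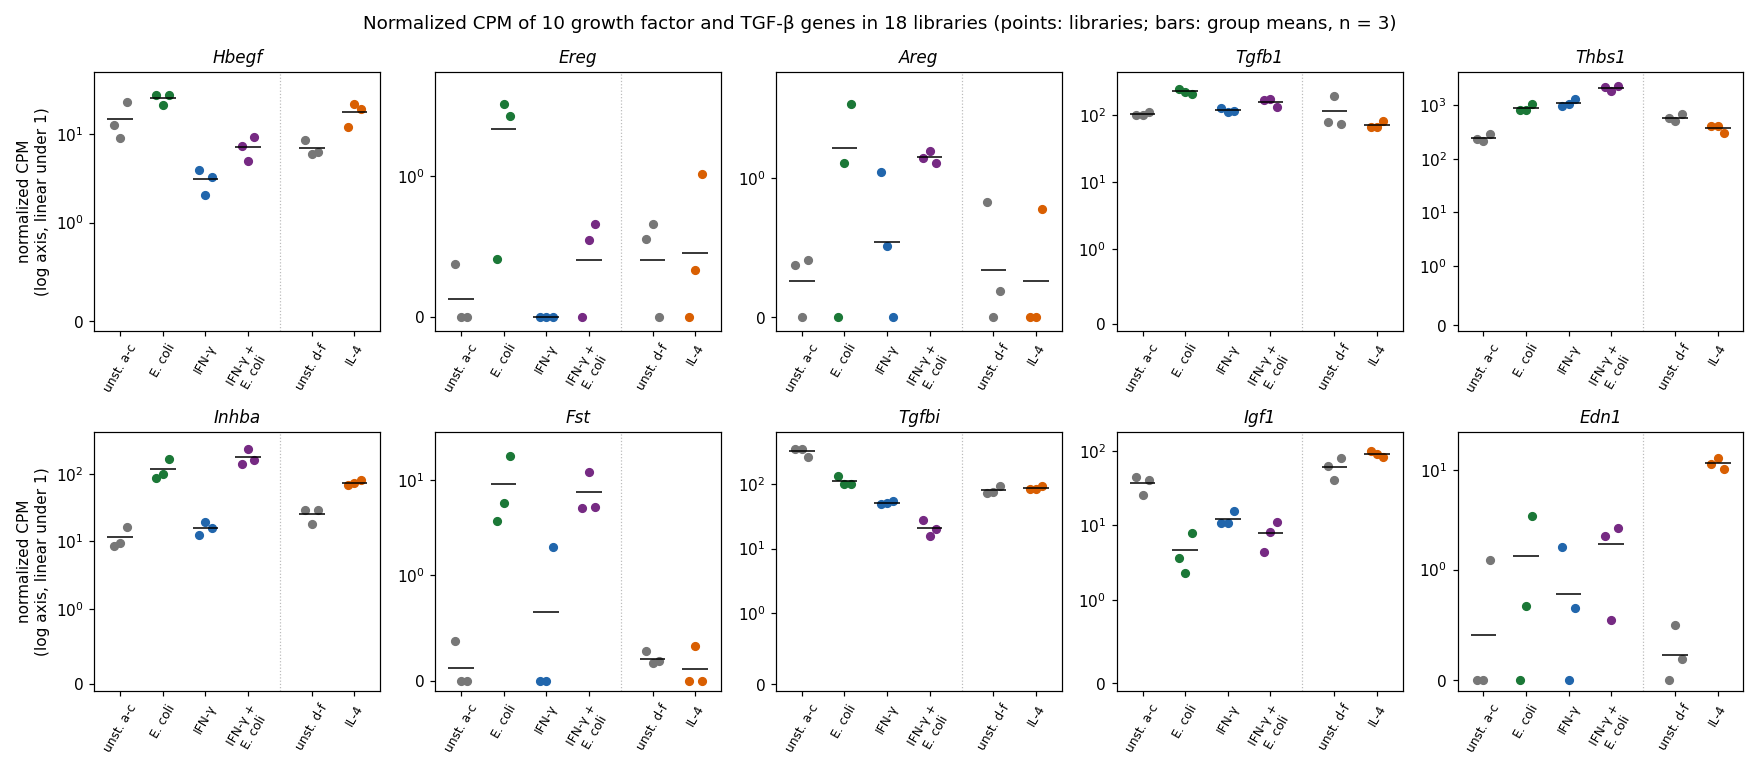
Normalized CPM of the 10 genes in each of the 18 libraries, on an axis that is logarithmic above 1 and linear under it, with points for libraries and bars for group means (n = 3). A dotted line parts the layouts. *Edn1* lies between 10.1 and 13.3 CPM with IL-4 and under 1 CPM in unstimulated libraries d to f, and *Tgfbi* steps down from unstimulated cells to *E. coli*, IFN-γ and both.

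*Hbegf* (ENSMUSG00000024486, chromosome 18, 36504927 to 36515805) encodes a heparin-binding ligand of the EGF receptor. Its level was 12.7, 8.87 and 22.7 CPM in unstimulated libraries a, b and c, and 27.7, 21.1 and 27.6 in libraries 1 to 3 with *E. coli*. With IFN-γ it was 3.92, 2.05 and 3.27, and with both stimuli 7.30, 4.93 and 9.23. Every IFN-γ library lay under every unstimulated one, whereas library c lay above the lowest *E. coli* library and library b under the highest library with both stimuli. By group mean the order was *E. coli*, unstimulated, both stimuli, IFN-γ, and unstimulated cells overlapped with both of their neighbours. On the log2 scale the change was 0.73 with *E. coli* (standard error 0.27, edgeR adjusted p = 0.0453), -2.30 with IFN-γ (0.41, 2.60e-04) and -1.10 with both (0.35, 0.0145). The *E. coli* call was lost without library a (0.60), b (0.55), *E. coli* 1 (0.67) or *E. coli* 3 (0.68), with DESeq2 (0.77) and in the model of all 18 libraries (0.77), with edgeR and DESeq2 adjusted p from 0.00381 to 0.181 over 13 alternatives. The call for both stimuli was lost without library c (-0.65) or library 2 with both stimuli (-0.86), and with all 6 unstimulated libraries as one group (-0.68), with adjusted p from 0.00303 to 0.152. Under IL-4 the libraries held 11.98, 21.8 and 19.2 CPM, and unstimulated libraries d to f 8.61, 5.96 and 6.23. These groups did not overlap, and the log2 fold change was 1.37 (standard error 0.28, edgeR adjusted p = 0.0130). The call was lost without library f (1.29), IL-4 2 (1.17) or IL-4 3 (1.29), with adjusted p from 1.00e-04 to 0.0850 over 13 alternatives.

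*Areg* (ENSMUSG00000029378, chromosome 5, 91139599 to 91148432), the gene of amphiregulin, and *Ereg* (ENSMUSG00000029377, chromosome 5, 91074622 to 91093646), the gene of epiregulin, lie next to each other in position and were near the floor in most libraries. *Areg* had 0, 4 and 8 counts with *E. coli* and 1, 0 and 1 in libraries a to c, a ratio of 5.37 after scaling by depth. *Ereg* had 1, 11 and 6 counts with *E. coli* and 1, 0 and 0 without, a ratio of 16.1. The exact 95% intervals from the summed counts were 1.195 to 49.4 and 2.54 to 671. *E. coli* library 1 held 0 and 1 counts of these genes, so the higher counts came from *E. coli* libraries 2 and 3. In the other groups neither gene exceeded 4 counts in a library, with *Ereg* at 0 in all 3 IFN-γ libraries.

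Of 10 listed EGF family ligands, 2 passed the filter in the type 1 layout and 3 in that of IL-4. *Nrg1*, the gene of neuregulin-1, a ligand of ERBB receptors, rose with IL-4 from 2.04 ± 0.202 to 7.82 ± 1.85 CPM (SD, n = 3), a log2 fold change of 1.95 (edgeR adjusted p = 0.00594). The called counts of this list were 1 higher and 0 lower with *E. coli*, 0 and 1 with IFN-γ, 0 and 1 with both, and 2 and 0 with IL-4, with medians of 0.75, -1.06, -0.21 and 1.37. Counts of this and the further gene and marker lists stand beside the shares of all tested genes. Those called higher and lower were 13.5% and 16.7% with *E. coli* and 15.6% and 16% with IFN-γ. With both stimuli they were 23.9% and 25.2%, and with IL-4 5.97% and 4.35%.

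The receptors *Egfr*, *Erbb2*, *Erbb3* and *Erbb4* did not pass the filter in either layout, and in the type 1 layout the tested genes of their list were the shedding proteases and their helper. *Adam17*, the main sheddase of several EGF family ligands, and *Rhbdf2*, which its maturation needs in leukocytes, rose with IFN-γ and with both stimuli. *Adam17* stood at 62.1 ± 3.17 CPM unstimulated, 126 ± 15.5 with IFN-γ and 139 ± 15.6 with both (SD, n = 3), log2 fold changes of 1.01 and 1.16 (edgeR adjusted p = 5.51e-06 and 4.69e-07). *Rhbdf2* had 42.6 ± 7.17, 86.9 ± 15.8 and 100.4 ± 44.9 CPM, log2 fold changes of 1.02 and 1.24 (edgeR adjusted p = 0.00297 and 2.90e-04). *Adam10*, another sheddase, rose by 0.64 with *E. coli* (standard error 0.13, edgeR adjusted p = 9.22e-04), a call lost with all 6 unstimulated libraries as one group (0.20). Of 3 tested genes, 3 were higher under *E. coli*, 2 under IFN-γ and 2 under both, with none lower and medians of 0.64, 1.01 and 1.16. With *E. coli* the calls of *Adam17* (0.38) and *Rhbdf2* (0.76) were lost without library a (0.37 and 0.67) or b (0.38 and 0.74), and also without *E. coli* 1 (0.33 for *Adam17*) or *E. coli* 2 (0.41 and 0.66). That of *Adam17* was lost as well with all 6 unstimulated libraries as one group (0.21) and in the model of all 18 libraries (0.41). Over 14 alternatives the adjusted p ran from 0.01605 to 0.346 for *Adam17* and from 1.15e-05 to 0.0958 for *Rhbdf2*. With IL-4, edgeR called 0 of 4, with a median of -0.02.

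*Tgfb1* (ENSMUSG00000002603, chromosome 7, 25687002 to 25705077) encodes TGF-β1. Libraries a to c held 101, 103 and 113 CPM, those with *E. coli* 248, 225 and 208, those with IFN-γ 129, 112 and 116, and those with both 168, 174 and 133. The order was *E. coli* (227 ± 19.7), both stimuli (158 ± 22.5), IFN-γ (119 ± 8.89) and unstimulated (106 ± 6.47), and the last pair overlapped. The log2 fold change was 1.10 with *E. coli* (standard error 0.12, edgeR adjusted p = 1.21e-06), 0.17 with IFN-γ (0.315) and 0.58 with both (standard error 0.12, 7.06e-04). With all 6 unstimulated libraries as one group the call for both stimuli was lost (0.35), with edgeR and DESeq2 adjusted p from 7.41e-05 to 0.305 over 14 alternatives. In the IL-4 layout, libraries d to f held 78.9, 194 and 74.6 CPM and the IL-4 libraries 66.8, 68.0 and 81.7. Library e was the highest, and the groups overlapped. With IL-4 the log2 fold change was -0.69 (standard error 0.32, edgeR adjusted p = 0.207) and without library e -0.10. It was called with no filter on low counts (-0.72) and in the model of all 18 libraries (-0.69), with adjusted p from 3.82e-04 to 0.718 over 13 alternatives.

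*Inhba* (ENSMUSG00000041324, chromosome 13, 16011851 to 16031621) encodes the βA chain of activin A. It had 8.57, 9.51 and 16.1 CPM in libraries a to c, 86.9, 97.6 and 165 with *E. coli*, 12.3, 19.5 and 15.7 with IFN-γ, and 138, 229 and 161 with both. The libraries with *E. coli*, alone or with IFN-γ, lay above all others of this layout, whereas IFN-γ and unstimulated libraries overlapped, as did those with *E. coli* and with both. The log2 fold change was 3.32 with *E. coli* (standard error 0.29, edgeR adjusted p = 8.05e-08), 0.47 with IFN-γ (0.379) and 3.94 with both (standard error 0.29, 1.94e-09). Libraries d to f held 28.9, 17.7 and 28.7 CPM and IL-4 libraries 68.1, 71.6 and 80.6, without overlap. With IL-4 the log2 fold change was 1.56 (standard error 0.20, edgeR adjusted p = 9.49e-04), and the calls with *E. coli*, both stimuli and IL-4 held in every alternative run.

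*Fst* (ENSMUSG00000021765, chromosome 13, 114452290 to 114458951) encodes follistatin, which binds activin and blocks it. Unstimulated libraries a to c held 1, 0 and 0 counts and IFN-γ libraries 0, 0 and 3, so no fold is given between these groups. Its level was 3.67, 5.68 and 17.8 CPM with *E. coli*, and 5.11, 12.1 and 5.28 with both stimuli. Each of these libraries lay above each unstimulated and IFN-γ library, with *E. coli* library 3 the highest. After scaling by depth the ratio to unstimulated libraries was 55.5 with *E. coli* (exact 95% interval 9.60 to 2227) and 52.5 with both stimuli (8.85 to 2129). The calls had edgeR adjusted p of 6.22e-04 and 7.01e-04, and they held without each library, with adjusted p of at most 0.00520 and 0.00749. In the IL-4 layout no library held more than 2 counts.

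The list of TGF-β and activin ligands and traps holds 16 genes, of which 5 passed the filter in the type 1 layout and 6 in that of IL-4. The counts higher and lower were 4 and 1 with *E. coli*, 0 and 0 with IFN-γ, 4 and 0 with both, and 1 and 1 with IL-4. Each count of 4 includes *Fst*, which passed the filter only through libraries with *E. coli*. The medians were 1.10, 0.17, 0.58 and -0.16. *Ltbp1*, which ties latent TGF-β to the matrix, fell with *E. coli* from 17, 7 and 12 counts in libraries a to c to 0, 4 and 3, a mean level under the floor (edgeR adjusted p = 0.00589), so no fold is given. *Nrros*, which holds latent TGF-β1 on myeloid cells, rose with both stimuli from 183 ± 17.4 to 245 ± 19.5 CPM (SD, n = 3), by 0.42 on the log2 scale (edgeR adjusted p = 0.00341). The call of *Nrros* was lost with all 6 unstimulated libraries as one group, at -0.01. The ligand genes *Tgfb2* and *Tgfb3* did not pass the filter.

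*Thbs1* (ENSMUSG00000040152, chromosome 2, 118111876 to 118127133) encodes thrombospondin-1, a matrix glycoprotein that can activate latent TGF-β. It had 234, 215 and 299 CPM in libraries a to c, 819.9, 808 and 1053 with *E. coli*, 997, 1048 and 1338 with IFN-γ, and 2174, 1845 and 2363 with both. The order was both stimuli, IFN-γ, *E. coli*, unstimulated, and only *E. coli* and IFN-γ overlapped. The log2 fold changes were 1.84, 2.17 and 3.09 with *E. coli*, IFN-γ and both (standard error 0.16 for each, edgeR adjusted p = 7.16e-08, 6.52e-09 and 2.71e-11). With all 6 unstimulated libraries as one group the *E. coli* call was lost (0.81), with adjusted p from 9.48e-46 to 0.141 over 14 alternatives. In the IL-4 layout the level was 578, 508 and 678 CPM unstimulated and 409, 419 and 299 with IL-4. All 3 IL-4 libraries lay under all unstimulated ones, and the log2 fold change was -0.65 (standard error 0.16, edgeR adjusted p = 0.0278). The IL-4 call was lost without library f (-0.54), IL-4 1 (-0.70), IL-4 2 (-0.74) or IL-4 3 (-0.52), and with all 6 unstimulated libraries as one group (-0.03), with adjusted p from 1.03e-04 to 0.968 over 13 alternatives.

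The counts of *Thbs1* came close to a limit on counts in the type 1 layout. The highest count of any gene was 4089 to 4095 in these 12 libraries, just under 4096, the number of distinct sequences of 6 bases. It was 87377 to 191131 in the IL-4 layout. *Thbs1* reached 3583 counts with both stimuli, 87.5% of 4096, and the next highest of the 10 genes, *Tgfbi*, reached 23.05%. With counts corrected for such a limit, an alternative chosen after the data were seen, its log2 fold changes were 2.24, 2.53 and 4.07 with *E. coli*, IFN-γ and both. Among genes named further on, *Grn* reached 79.3% of 4096, *Tgm2* 73.3%, *Furin* 47.4% and *Vegfa* 43.8%. Corrected in the same way, the log2 fold changes of *Tgm2* were 3.27 under IFN-γ and 3.60 under both, those of *Grn* -1.06 and -1.39, those of *Furin* 1.20 under *E. coli* and 0.91 under both, and those of *Vegfa* 2.48, 4.501 and 6.10 under *E. coli*, IFN-γ and both. The labels name CEL-Seq and RNA-seq libraries on separate instruments without saying which files came from which, and do not state whether molecular identifiers were collapsed.

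Thrombospondin-1 stands on a list of 9 TGF-β activators, of which 7 passed the filter in each layout. The counts higher and lower were 4 and 0 with *E. coli*, 3 and 0 with IFN-γ, 5 and 0 with both, and 2 and 2 with IL-4, with medians of 0.86, 0.30, 1.05 and -0.06. *Itgb8*, a chain of the integrin αvβ8 that binds latent TGF-β, rose from 5.05 ± 1.36 to 30.9 ± 12.4 CPM with *E. coli* and to 26.4 ± 6.17 with both (SD, n = 3), log2 fold changes of 2.57 and 2.38 (edgeR adjusted p = 8.55e-06 and 1.64e-05). With IFN-γ alone it was at 6.27 ± 2.05 CPM. *Tgm2*, a transglutaminase that links latent TGF-β into matrix, showed another pattern. It was at 234 ± 62.5 CPM unstimulated and 236 ± 21.1 with *E. coli*, and rose to 1503 ± 179.6 with IFN-γ and 1793 ± 136 with both (log2 fold changes 2.68 and 2.93, edgeR adjusted p = 4.09e-10 and 4.93e-11). *Furin*, the protease that cleaves the TGF-β precursor, rose by 1.00 with *E. coli* and 0.83 with both (edgeR adjusted p = 6.61e-04 and 0.00170), calls lost with all 6 unstimulated libraries as one group (0.22 and 0.09). *Mmp9*, a matrix protease, rose by 0.78 with IFN-γ (edgeR adjusted p = 4.44e-04) and with IL-4 fell by 2.37, from 182 ± 55.3 to 35.3 ± 2.90 CPM (edgeR adjusted p = 1.09e-04).

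Of 14 receptors and SMADs, 11 passed the filter in each layout. The counts higher and lower were 3 and 1 with *E. coli*, 2 and 0 with IFN-γ, 3 and 0 with both, and 1 and 0 with IL-4, with medians of -0.13, 0.25, 0.06 and -0.10. In the same order, the shares of all tested genes were 13.5% and 16.7%, 15.6% and 16%, 23.9% and 25.2%, and 5.97% and 4.35%. *Tgfbr2*, the receptor that binds TGF-β, rose from 109 ± 7.12 CPM to 253 ± 63.5 with IFN-γ and 357 ± 60.6 with both (SD, n = 3), log2 fold changes of 1.22 and 1.72 (edgeR adjusted p = 8.69e-06 and 4.99e-08). With *E. coli* it was at 115 ± 7.98. *Eng*, the co-receptor endoglin, rose by 1.34 with *E. coli* and 1.20 with both (edgeR adjusted p = 0.00675 and 0.0126). *Smad7*, an inhibitor of the pathway that TGF-β induces, rose with both stimuli from 17.7 ± 4.25 to 44.2 ± 5.57 CPM (log2 fold change 1.29, edgeR adjusted p = 1.29e-05). With IL-4 it rose from 7.37 ± 3.49 to 19.9 ± 1.36 (log2 fold change 1.48, edgeR adjusted p = 0.0107), a call lost without IL-4 library 2 (1.40, adjusted p from 6.93e-06 to 0.0617 over 13 alternatives).

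*Tgfbi* (ENSMUSG00000035493, chromosome 13, 56609523 to 56639562) encodes a matrix protein named for its induction by TGF-β. It had 352, 359 and 268 CPM in libraries a to c, 134, 101 and 101 with *E. coli*, 49.3, 51.3 and 54.3 with IFN-γ, and 27.8, 15.9 and 19.8 with both. No pair of these 4 groups overlapped, in the order unstimulated, *E. coli*, IFN-γ, both stimuli. Its log2 fold change was -1.54 under *E. coli*, -2.66 under IFN-γ and -3.97 under both (standard errors 0.15, 0.16 and 0.19, edgeR adjusted p = 2.27e-07, 4.53e-10 and 5.25e-12). With all 6 unstimulated libraries as one group the *E. coli* call was lost (-0.92), with adjusted p from 9.71e-27 to 0.105 over 14 alternatives. In the IL-4 layout it had 73.0, 74.5 and 92.5 CPM unstimulated and 83.9, 85.2 and 94.6 with IL-4, groups that overlapped (log2 fold change 0.13, edgeR adjusted p = 0.5995).

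*Tgfbi* stands on a list of 11 TGF-β feedback and target genes, of which 10 passed the filter in each layout. The counts higher and lower were 5 and 2 with *E. coli*, 6 and 1 with IFN-γ, 7 and 1 with both, and 3 and 1 with IL-4, with medians of 0.51, 0.46, 0.91 and 0.25. *Tgif1*, a repressor of SMAD-driven transcription, rose by 1.10, 2.03 and 2.96 on the log2 scale under *E. coli*, IFN-γ and both (edgeR adjusted p = 0.00116, 1.02e-06 and 1.66e-09). With all 6 unstimulated libraries as one group the *E. coli* call of *Tgif1* was lost (0.67). *Fn1*, the gene of fibronectin, fell by 1.59 with *E. coli*, from 30.1 ± 11.8 to 10.4 ± 3.26 CPM (SD, n = 3, edgeR adjusted p = 2.88e-04). With IL-4 *Fn1* was lower by 0.63 (edgeR adjusted p = 0.0175), a call lost without library f (-0.54), IL-4 1 (-0.68), IL-4 2 (-0.64) or IL-4 3 (-0.60), and with all 6 unstimulated libraries as one group (0.0280), with adjusted p from 0.00311 to 0.977 over 13 alternatives. With IL-4 the SMAD corepressors *Skil* and *Ski* rose by 0.86 and 0.89 (edgeR adjusted p = 0.00208 and 0.00405), and *Skil* rose by 0.58 with IFN-γ (edgeR adjusted p = 0.00185).

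*Igf1* (ENSMUSG00000020053, chromosome 10, 87858265 to 87937042) encodes insulin-like growth factor 1. It had 45.1, 25.4 and 40.5 CPM in libraries a to c, 3.67, 2.34 and 7.90 with *E. coli*, 10.6, 10.8 and 15.7 with IFN-γ, and 4.38, 8.22 and 11.2 with both. All 9 stimulated libraries lay under the lowest unstimulated one. The order was unstimulated, IFN-γ, both stimuli, *E. coli*, and both stimuli overlapped with each of its neighbours. The log2 fold change was -3.10 with *E. coli* (standard error 0.34, edgeR adjusted p = 1.25e-06), -1.62 with IFN-γ (0.30, 4.04e-04) and -2.22 with both (0.33, 2.05e-05), calls that held in every alternative run. With IL-4 the libraries held 98.9, 90.1 and 83.2 CPM, above the 61.9, 40.4 and 79.5 of libraries d to f. Although the groups did not overlap, the log2 fold change of 0.59 was not called (standard error 0.22, edgeR adjusted p = 0.120). It was called without library f (0.83) and with no filter on low counts (0.56), with adjusted p from 0.0155 to 0.332 over 13 alternatives.

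Of 13 genes of the IGF system, *Igf1* included, 6 passed the filter in each layout, and the counts higher and lower were 0 and 4 with *E. coli*, 0 and 3 with IFN-γ, 1 and 4 with both, and 0 and 0 with IL-4. The medians were -0.45, -0.52, -0.93 and -0.16. *Irs2*, the adaptor that carries the signal of insulin and IGF-1 receptors, fell from 91.1 ± 6.68 CPM to 43.1 ± 0.996 with IFN-γ and 45.2 ± 0.541 with both (SD, n = 3), log2 fold changes of -1.08 and -1.01 (edgeR adjusted p = 1.46e-06 and 1.51e-06). *Insr*, the insulin receptor, fell by 1.38 with both stimuli (edgeR adjusted p = 4.36e-04). *Igf1r*, the receptor of IGF-1, fell by 0.74 with IFN-γ and 0.84 with both (edgeR adjusted p = 9.83e-04 and 1.83e-04), calls lost with all 6 unstimulated libraries as one group (-0.34 and -0.41). *Igfbp4*, which binds and holds back IGF-1, rose with both stimuli from 2.21 ± 1.77 to 11.1 ± 6.02 CPM (log2 fold change 2.21, edgeR adjusted p = 0.00628), a call also lost there (1.00).

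*Edn1* (ENSMUSG00000021367, chromosome 13, 42301476 to 42307990) encodes the precursor of endothelin-1. Its counts were 0, 3 and 1 in unstimulated libraries d to f and 60, 80 and 39 with IL-4, which gives 11.4, 13.3 and 10.1 CPM. Each IL-4 library was far above each unstimulated one, and the scaled ratio of the summed counts was 44.2, with an exact 95% interval of 16.95 to 164. The call held without each library, with edgeR adjusted p of at most 0.00274. In the type 1 layout *Edn1* was near the floor, with 0, 0 and 3 counts in libraries a to c, 0, 2 and 7 with *E. coli*, 3, 0 and 1 with IFN-γ, and 3, 1 and 4 with both. These groups overlapped, and the ratio with *E. coli* was 2.68 (exact 95% interval 0.670 to 15.4).

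Of 7 genes of the endothelin system, 2 passed the filter in the type 1 layout and 4 in that of IL-4, and the counts higher and lower were 1 and 0 in each comparison of the type 1 layout and 2 and 1 with IL-4. The 2 higher with IL-4 include *Edn1*, which passed the filter only through the IL-4 libraries. The medians were 0.56, 0.18, 0.69 and 1.05. With IL-4, *Ednra*, the endothelin A receptor, rose from 1.44 ± 0.668 to 8.60 ± 3.06 CPM (SD, n = 3), a log2 fold change of 2.51 (edgeR adjusted p = 0.00485). *Ednrb*, the endothelin B receptor, fell from 51.2 ± 11.3 to 17.8 ± 6.00 (log2 fold change -1.53, edgeR adjusted p = 0.00442), a call lost with all 6 unstimulated libraries as one group (-0.93). With IFN-γ it was higher by 0.75 and with both stimuli by 0.83 (edgeR adjusted p = 0.0273 and 0.0104). The IFN-γ call of *Ednrb* was lost without library a (0.78), b (0.60), IFN-γ 1 (0.76) or IFN-γ 3 (0.75), and with all 6 unstimulated libraries as one group both calls were lost and the sign turned (-0.23 and -0.13), with adjusted p from 0.00170 to 0.743 and from 4.68e-04 to 0.84 over 14 alternatives. *Ednra* was not tested in the type 1 layout, where its summed counts were 36 in libraries a to c, 8 under *E. coli*, 4 under IFN-γ and 4 under both stimuli. The scaled ratio of unstimulated to stimulated counts was 7.09 with IFN-γ (exact 95% interval 2.54 to 27.4) and 6.34 with both (2.27 to 24.5), the groups where all libraries were at the floor. *Ece1*, the protease that makes endothelin from its precursor, rose with *E. coli* from 12.7 ± 3.41 to 43.4 ± 3.00 CPM (log2 fold change 1.77, edgeR adjusted p = 2.95e-06).

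The RefSeq promoter table of build GRCm38.p6 holds 6 of the 10 genes, *Areg*, *Tgfb1*, *Tgfbi*, *Igf1*, *Inhba* and *Edn1*, and its starts of *Tgfbi* and *Igf1* differ from the Ensembl ones given here. The 250 bases before *Edn1* and *Inhba*, the genes of this set with the largest rises under IL-4 and under *E. coli* that are in the table, are printed 5′ to 3′. Both lie on the + strand of chromosome 13, at chr13:42301226-42301475 and chr13:16011601-16011850. Both strands were searched for TTCNNNNGAA (STAT6), TTCNNNGAA (GAS), TGANTCA (AP-1), ACGTG (the core of the HIF site) and the κB motif. The share of all 27018 promoters that hold each in the same window is 5.86%, 7.18%, 6.87%, 16.6% and 7.01%. Capitals mark a match, which is a description of letters and not a measured site. *Edn1* holds the STAT6 letters at -185 to -176 from the gene start, and none of the 5 motifs was found in the window of *Inhba*.
Edn1: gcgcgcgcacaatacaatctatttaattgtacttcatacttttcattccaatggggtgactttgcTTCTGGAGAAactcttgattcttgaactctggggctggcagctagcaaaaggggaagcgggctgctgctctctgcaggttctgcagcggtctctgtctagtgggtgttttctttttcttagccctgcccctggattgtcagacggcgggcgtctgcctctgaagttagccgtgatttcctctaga
Inhba: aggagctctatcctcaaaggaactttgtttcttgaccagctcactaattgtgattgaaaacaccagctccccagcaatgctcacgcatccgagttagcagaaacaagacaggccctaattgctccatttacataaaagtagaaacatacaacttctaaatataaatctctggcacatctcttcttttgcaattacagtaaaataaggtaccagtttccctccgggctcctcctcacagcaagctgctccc

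**Figure D2:**
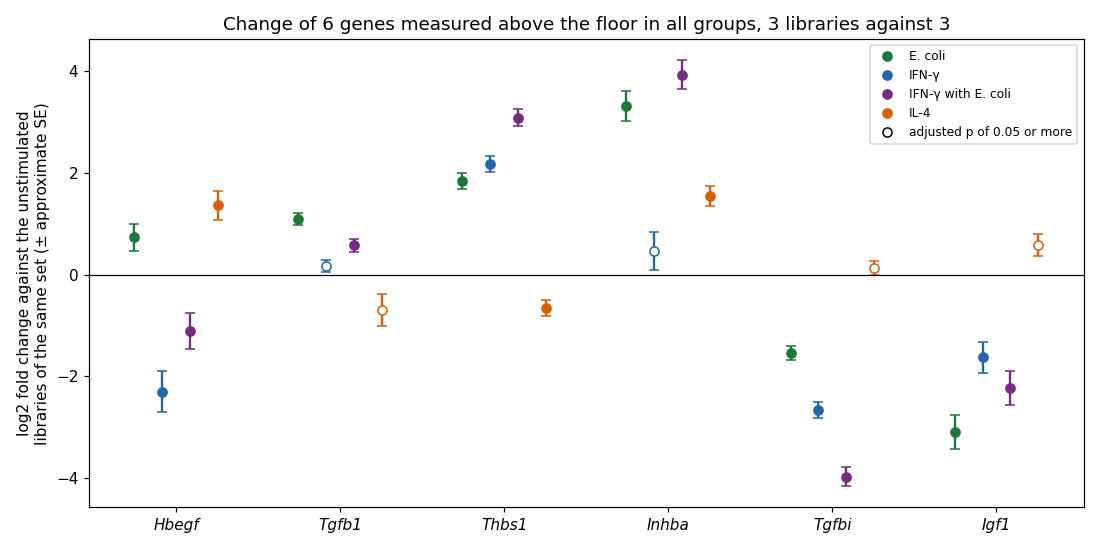
Log2 fold change, with its standard error as the bar, of the 6 genes measured above the floor in all groups, for each stimulus against the 3 unstimulated libraries of its own layout (3 libraries each). *Thbs1* lies at 1.84, 2.17 and 3.09 with *E. coli*, IFN-γ and both and at -0.65 with IL-4, and *Tgfbi* at -1.54, -2.66, -3.97 and 0.13.

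Among the receptors of thrombospondin-1, *Cd36* went in both directions. It stood at 71.5 ± 16.3 CPM in libraries a to c, 27.6 ± 12.04 after *E. coli*, 151 ± 20.4 after IFN-γ and 40.6 ± 4.86 after both (SD, n = 3). These are log2 fold changes of -1.43, 1.05 and -0.83 (edgeR adjusted p = 7.40e-05, 4.18e-04 and 0.00470), and the rise with IFN-γ was not called with all 6 unstimulated libraries as one group (0.48). With IL-4 it fell from 112 ± 21.5 to 33.0 ± 4.40 CPM (log2 fold change -1.77, edgeR adjusted p = 2.23e-04). *Thbs4*, another thrombospondin, rose with both stimuli from 4, 1 and 1 counts in libraries a to c, a mean level under the floor, to 10, 12 and 17 (edgeR adjusted p = 2.79e-04), and no fold is given. Of 6 genes on this list, 4 passed the filter in the type 1 layout and 3 in that of IL-4. The counts higher and lower were 1 and 1 with *E. coli*, 2 and 0 with IFN-γ, 2 and 1 with both, and 1 and 2 with IL-4, with medians of 0.84, 0.57, 1.60 and -0.65.

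Other growth factors of repair were also measured, 15 of them, of which 7 passed the filter in each layout. *Vegfa*, which drives vessel growth, rose under every stimulus, from 20.9 ± 4.45 CPM to 114 ± 7.95 after *E. coli*, 427 ± 117 after IFN-γ and 1102 ± 104 after both, and from 163 ± 27.8 to 298 ± 24.5 with IL-4 (SD, n = 3). Its log2 fold changes were 2.43, 4.34, 5.71 and 0.87 (edgeR adjusted p = 6.07e-08, 1.34e-11, 4.92e-13 and 0.00427). Unstimulated levels of *Vegfa* differ between the layouts, and with all 6 unstimulated libraries as one group the values for *E. coli*, IFN-γ and IL-4 were -0.0574, 1.87 and 1.74, none of them called. *Osm*, the gene of oncostatin M, rose with both stimuli from 76.3 ± 6.64 to 258 ± 41.0 CPM (log2 fold change 1.75, edgeR adjusted p = 4.18e-09). *Pgf*, a relative of *Vegfa*, rose with *E. coli* from 1.62 ± 0.862 to 7.57 ± 1.32 CPM (log2 fold change 2.29, edgeR adjusted p = 8.53e-04). *Grn*, the gene of progranulin, fell by 0.61 with IFN-γ and 0.86 with both and rose by 0.66 with IL-4 (edgeR adjusted p = 0.00139, 2.58e-05 and 0.00371). The genes named from the lists had other calls, which the limit on named genes or a call lost in an alternative leaves without values. With *E. coli* alone, *Nrros*, *Smad7*, *Skil* and *Osm* were also higher and *Igf1r*, *Insr*, *Irs2* and *Grn* lower. *Smad7* was also higher with IFN-γ and *Skil* with both stimuli, and with IL-4 *Itgb8* and *Tgm2* were higher and *Ltbp1* lower. The counts higher and lower were 5 and 1 with *E. coli*, 1 and 1 with IFN-γ, 3 and 1 with both, and 3 and 0 with IL-4, with medians of 1.52, -0.61, 0.76 and 0.45. Of the genes named from the lists, *Adam17*, *Ednra*, *Eng*, *Fn1*, *Furin*, *Grn*, *Irs2*, *Nrg1* and *Tgm2* overlap exons of an antisense gene, and whether counting used strand is not stated.

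Adding *E. coli* to IFN-γ raised *Inhba*, *Fst*, *Thbs1* and *Tgfb1* and lowered *Tgfbi* further. In the comparison of both stimuli with IFN-γ alone, 5 of the 7 tested genes were called in either direction, beside 12.2% of all genes. Among the 5 is *Fst*, which passed the filter only through libraries with *E. coli*. *Inhba* was higher by 3.47, *Thbs1* by 0.92 and *Tgfb1* by 0.41 on the log2 scale, and *Tgfbi* fell by 1.31 (edgeR adjusted p = 8.81e-08, 4.30e-04, 0.0373 and 3.52e-04). With counts corrected for the limit at 4096, *Thbs1* was higher by 1.54. *Fst* had a ratio of 13.8 (exact 95% interval 4.37 to 69.9, edgeR adjusted p = 0.0170), a call lost without IFN-γ 1, IFN-γ 2 or library 2 with both stimuli (adjusted p = 0.0827, 0.0753 and 0.111, over a range of 4.93e-06 to 0.111 in 10 alternatives). *Hbegf* at 1.19 and *Igf1* at -0.60 were not called (edgeR adjusted p = 0.128 and 0.386). The call of *Tgfb1* was lost without IFN-γ 1 (0.47), 2 (0.35) or 3 (0.39), without library 1 (0.37) or 2 (0.33) with both stimuli, and with no filter on low counts (0.38), with adjusted p from 0.00949 to 0.179 over 12 alternatives. The count of 5 was 3 without IFN-γ 1, IFN-γ 2 or library 2 with both stimuli. Fewer genes were also called over the whole table whichever library was left out, so this drop is not read as particular to these genes.

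Adding IFN-γ to *E. coli* lowered *Hbegf*, *Tgfb1* and *Tgfbi* and raised *Thbs1* and *Inhba*. In the comparison of both stimuli with *E. coli* alone, 5 of 7 were called in either direction, beside 32.8% of all genes. *Hbegf* fell by 1.84, *Tgfb1* by 0.52 and *Tgfbi* by 2.43, and *Thbs1* rose by 1.25 (edgeR adjusted p = 2.51e-04, 0.00228, 1.37e-08 and 3.32e-06). The value of *Thbs1* was 1.83 with counts corrected for the limit at 4096. *Inhba* was higher by 0.62 although the groups overlapped (standard error 0.22, edgeR adjusted p = 0.0351). That call was lost without *E. coli* 1 (0.44), *E. coli* 2 (0.50) or library 2 with both stimuli (0.37), and with DESeq2 (0.62), with adjusted p from 5.62e-04 to 0.253 over 12 alternatives. *Igf1* at 0.88 and *Fst* at -0.15 were not called (edgeR adjusted p = 0.147 and 0.864), and *Igf1* was called without *E. coli* 3 (1.43, adjusted p from 0.0273 to 0.457 over 11 alternatives).

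The departure of the joint log2 effect from the sum of the single ones, the interaction, was called for 3 of 7 genes, beside 4.62% of all genes. For *Igf1* it was 2.50 (standard error 0.55, edgeR adjusted p = 0.0118), since the fall with both stimuli was smaller than the sum of the falls with each. For *Tgfb1* it was -0.69 and for *Thbs1* -0.92 (standard errors 0.17 and 0.22, edgeR adjusted p = 0.0243 and 0.0176), so both rose less than the sum of their single changes. The call of *Tgfb1* was lost without library a (-0.66), *E. coli* 1 (-0.64), *E. coli* 2 (-0.71) or IFN-γ 1 (-0.64), with adjusted p from 0.00560 to 0.0775 over 17 alternatives. The call of *Thbs1* was lost without library a (-0.88), IFN-γ 3 (-0.80) or library 2 with both stimuli (-0.84), and with counts corrected for the limit at 4096 (-0.70), with adjusted p from 3.64e-06 to 0.116. That of *Igf1* held in all 16 alternatives, with adjusted p of at most 0.0448. The values of *Hbegf* (0.46), *Tgfbi* (0.23) and *Inhba* (0.15) were not called. Without library a, 1 of the 7 was called. Over all genes the number called also moved when single libraries were left out, so this drop is not read as particular to these genes.

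The response to IL-4 was also compared with that to IFN-γ and *E. coli*, each taken against its own unstimulated libraries, in a model of all 18 libraries. Here 8 of the 10 genes passed the filter, and 7, *Fst* among them, were called in either direction, beside 39.2% of 10671 genes. *Tgfbi*, *Igf1* and *Hbegf* were higher in the IL-4 response by 4.04, 2.75 and 2.41 on the log2 scale, and *Thbs1*, *Inhba* and *Tgfb1* lower, at -3.79, -2.44 and -1.34. The edgeR adjusted p of these 6 was at most 0.00359, and with counts corrected for the limit at 4096 *Thbs1* was at -4.70. The value of *Tgfb1* includes unstimulated library e, without which its log2 fold change with IL-4 was -0.10 in place of -0.69. *Fst* was called at an edgeR adjusted p of 0.0405, and the call was lost without library b, c, d, e or f, library 2 with both stimuli, or IL-4 1 or IL-4 3, with adjusted p from 0.00783 to 0.0843 over 16 alternatives. *Fst* was at the floor in unstimulated libraries a to f and with IL-4, so its fitted IL-4 response measures no change. Its call is therefore not read as a difference between the responses. *Edn1* was not called (edgeR adjusted p = 0.132), with a log2 difference of 3.39 and a standard error of 1.75. It was at the floor in libraries a to c and near it with both stimuli. The missing call is therefore not read as a like response of *Edn1*. Layout and stimulus differ together in this contrast and cannot be told apart.

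Markers were read to check the labelled cell type. Of 9 eosinophil markers, *Alox15* or *Ccr3* was the most abundant in every library, and their summed level was 4323 ± 709 CPM in libraries a to c, 3389 ± 237 with *E. coli*, 4040 ± 421 with IFN-γ, 3097 ± 193 with both, 5487 ± 448 in libraries d to f and 5121 ± 102 with IL-4 (SD, n = 3). The granule gene *Epx* was at 0 in 5 of the 12 libraries of the type 1 layout. Of 6 tested markers there, 1 rose and 2 fell with *E. coli*, 0 rose and 4 fell with IFN-γ, and 1 rose and 4 fell with both. With IL-4, 4 of 9 rose and 1 fell.

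Markers of peritoneal macrophages were present in every group, and macrophages are a known source of *Igf1*, *Tgfbi*, *Tgfb1* and *Thbs1*. The 11 listed genes summed to 1752, 1858 and 1859 CPM in libraries a to c, 1702, 1524 and 2066 with *E. coli*, 2360.4, 2307 and 2520 with IFN-γ, and 2117, 2015 and 2493 with both. They summed to 2694, 3199 and 3320 in libraries d to f and 2281, 2267 and 2545 with IL-4. *Adgre1*, which eosinophils also express, was the most abundant of them in the former layout, and *C1qc* or *C1qb* in the latter. Only *Cd163* was at 0 in any library. Of 10 tested, 0 rose and 3 fell with *E. coli*, 4 rose and 2 fell with IFN-γ, 2 rose and 2 fell with both, and 0 rose and 3 fell with IL-4. The part of macrophages in the changes of *Igf1*, *Tgfbi*, *Tgfb1* and *Thbs1* was not tested.

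Platelets, which store TGF-β1 and thrombospondin-1, were read from 5 genes, of which *Pf4* was the most abundant in all libraries but IL-4 1 and IL-4 2, where *Itga2b* was. *Gp9* was at 0 in all 18 libraries. Their sum was 447 ± 113 CPM in libraries a to c, 489 ± 106 with *E. coli*, 391 ± 10.2 with IFN-γ, 516 ± 94.9 with both, 679 ± 65.5 in libraries d to f and 558 ± 35.9 with IL-4 (SD, n = 3). Of 3 tested in the type 1 layout, 1 rose with each stimulus and 1 fell with IFN-γ and with both, and 1 of 4 fell with IL-4.

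The 5 B cell markers, led by *Ighm*, summed to 214, 192 and 117 CPM in libraries a to c, 39.2, 44.5 and 75.5 with *E. coli*, 98.5, 60.5 and 58.2 with IFN-γ, and 115, 129 and 125 with both. All 5 fell with *E. coli* and 4 with IFN-γ, and with both stimuli 0 of 5 were called. The isolation depletes cells that bind antibody to B220. In libraries d to f they summed to 24.4, 23.7 and 43.4, and with IL-4 to 63.3, 58.3 and 68.4, where 3 of 4 tested rose. The 6 neutrophil genes, led by *Retnlg*, stood at 598 ± 77.0, 366 ± 33.2, 680 ± 54.8 and 384 ± 48.8 CPM in unstimulated, *E. coli*, IFN-γ and joint libraries, and at 1871 ± 172 and 771 ± 41.2 in libraries d to f and with IL-4. Of 3 tested in the type 1 layout, 1 rose and 1 fell with *E. coli*, 2 rose with IFN-γ, and 2 rose and 1 fell with both, and 1 of 4 fell with IL-4. The 7 mast cell genes, led by *Tpsb2*, *Cma1* or *Cpa3*, summed to 8.45 ± 1.14 CPM in libraries a to c, 17.1 ± 15.2 with *E. coli*, 19.2 ± 9.55 with IFN-γ, 58.5 ± 19.2 with both, 7.53 ± 1.00 in libraries d to f and 15.3 ± 6.61 with IL-4 (SD, n = 3). Of 2 tested, 1 rose with IFN-γ and 2 with both.

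The lists of T cell, dendritic cell and mesothelial cell or fibroblast markers were near the floor or low. The 6 T cell genes, led by *Cd3d*, summed to at most 8.94 CPM in any library, and the 1 tested was not called. The 4 dendritic cell genes summed to at most 8.77 CPM in the type 1 layout and 17.4 in that of IL-4, where 1 of 2 tested rose. The 7 mesothelial cell or fibroblast genes summed to at most 6.42 CPM in the type 1 layout, where none was tested, and to 32.8 ± 1.04 and 39.5 ± 11.3 in libraries d to f and with IL-4, where 0 of 3 were called. The part of any of these cells in the results was not tested.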

How the data were processed

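The counts per Ensembl gene were deposited by the authors without normalization, and the labels name TopHat2 2.1.0, HTSeq 0.6.1, fastp 0.20.1 and STAR 2.7.2a without saying for which libraries. The 10 genes and the gene and marker lists were chosen with earlier results of these data known.

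Gene names and positions came from the GRCm38 annotation. The listed symbol *Ctgf* was matched as *Ccn2*. Counts were normalized with TMM, filtered with filterByExpr and tested with the quasi-likelihood F test of edgeR 4.0.16 in R 4.3.3, with Benjamini-Hochberg adjustment over all genes tested, in models of the 12 libraries of the type 1 layout, the 6 of the IL-4 layout, and all 18 for the contrast of responses. The standard errors are approximate, from the log2 fold change and its test statistic. Scripts were tested on simulated data. Where every library of a group held 3 counts or fewer, the ratio of summed counts is given with an exact 95% interval in place of a fitted fold. The annotated transcripts of the 10 genes were searched with BLAST against those of all other genes for matches of at least 95% identity over 200 bases, and none was found.

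From each list, at most 4 called genes with the largest change and a mean of at least 1 CPM were eligible to be named in a comparison. Most of those whose call was lost by leaving out 1 library are given by counts alone. No replicate block was used, since unstimulated libraries carry letters, and a block by replicate number was an alternative for comparisons between stimuli. The other alternatives were DESeq2 size factors, DESeq2 1.42.0, other filters, a change by a factor of 2, leaving out each library, only the compared groups, all 6 unstimulated libraries as one group, and a model of all 18 libraries. Correction of counts for a limit at 4096 was added after the data were seen.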

Additional observations from a re-analysis of the deposited data

Results flagged for a closer look

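In the main fit, the joint effect of IFN-γ and *E. coli* differed from the sum of the single effects for *Igf1*, *Tgfb1* and *Thbs1*. The interaction on the log2 scale was 2.50 for *Igf1*, -0.69 for *Tgfb1* and -0.92 for *Thbs1*. The call of *Igf1* held in all 16 alternatives. That of *Tgfb1* was lost in 4 of 17, each without 1 library, and that of *Thbs1* in 4 of 17, of which 3 left out 1 library and 1 used counts corrected for the limit at 4096 (-0.70).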

How the results depend on the processing

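With all 6 unstimulated libraries as one group the sign turned for *Nrros* (-0.0873) and *Vegfa* (-0.0574) with *E. coli*, for *Tgfb1* (-0.0891), *Inhba* (-0.49) and *Ednrb* (-0.23) with IFN-γ, for *Nrros* (-0.00917) and *Ednrb* (-0.13) with both stimuli, and for *Tgfbi* (-0.86) and *Fn1* (0.0280) with IL-4. Unstimulated levels differed between the layouts, at 327 ± 50.4 CPM in libraries a to c and 80.0 ± 10.8 in d to f for *Tgfbi*. For *Thbs1* they were 249 ± 43.9 and 588 ± 85.3 (SD, n = 3). Calls lost and signs turned in this setting cannot be told apart from such differences.

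With at least 10 counts required in every library, 4 of the 10 genes were tested in the type 1 layout and in the model of all 18 libraries, and 4 were called with *E. coli*, 2 with IFN-γ, 4 with both and 4 for the IL-4 response against the joint response, beside 2422, 2373 and 3781 of 7399 genes and 3096 of 6985. With a change by a factor of 2 also required, the genes called over the whole table were 1023 with *E. coli*, 1187 with IFN-γ, 2210.0 with both, 478 with IL-4, 404 for both stimuli against IFN-γ, 1325 for both against *E. coli*, 245 for the interaction and 2728 for the contrast of responses. Of the 10 genes, 3 were then called for both stimuli against IFN-γ, 3 for both against *E. coli* and 1 for the interaction. With IL-4, 1634 genes were called with no filter on low counts, 1662 with all 6 unstimulated libraries as one group and 1892 in the model of all 18.

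When each library was left out in turn, the genes called with IL-4 ran from 483 to 1394 and the number of the 10 from 2 to 4. For both stimuli against IFN-γ they ran from 740.0 to 1122 and from 3 to 5, and for the interaction from 266 to 562 and from 1 to 3. *Fst* was at the floor in unstimulated and IFN-γ libraries, so its fitted values there, -1.78 to 3.31 on the log2 scale, measure no change. Its log2 fold change ran from -0.73 to 0.69 for both stimuli against *E. coli* and from -3.47 to 1.62 for the interaction. The interaction ran from -0.0219 to 0.41 for *Tgfbi* and from -0.22 to 0.46 for *Inhba*. These results were not called in the fit of all libraries.

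Stimulated libraries of separate groups share the numbers 1 to 3, which the labels tie to no animal, day or batch. Deviations of same-numbered libraries from their group means correlated at -0.0450, 0.21 and 0.33 between IFN-γ and both stimuli and at 0.0706, 0.0986 and 0.16 between *E. coli* and both, and not every library correlated best with its own number. With the number as a replicate block, 4 of the 10 genes and 1418 genes in all were called for both stimuli against IFN-γ, beside 5 and 1209 without it. The block fit tested 8768 genes in place of 9883 and gave no value for *Fst* or *Hbegf*, so these counts differ by more than the block. Its log2 fold changes were 0.38 for *Tgfb1*, -1.34 for *Tgfbi*, -0.66 for *Igf1*, 0.89 for *Thbs1* and 3.45 for *Inhba*. For both against *E. coli* the block fit tested 9193 genes and gave 5 and 3142, beside 5 and 3240 without the block. The log2 fold changes were -1.85 for *Hbegf*, -0.53 for *Tgfb1*, -2.43 for *Tgfbi*, 0.84 for *Igf1*, 1.25 for *Thbs1*, -0.11 for *Fst* and 0.62 for *Inhba*.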
